A study of Homo sapiens with 26 samples.

Results

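From the 26 libraries of the series, 6 were chosen by their labels, 3 from Huh7 cells treated with 1.5 µM PF-06446846 for 60 min and 3 from Huh7 cells treated with 0.3 µM for the same time, and set against each other to ask where ribosome footprints change as the dose of a stalling compound rises 5-fold. Huh7 is an established human hepatocellular carcinoma line, so every library derives from 1 line. PF-06446846 is a small molecule that acts on the translating ribosome. In ribosome profiling (ribo-seq), the piece of mRNA covered by each ribosome is sequenced, and each read was assigned to the codon in the ribosomal P-site, where the tRNA that carries the growing chain sits. All cells received the compound in fresh medium and cycloheximide only at harvest, the 3 replicates of each dose were biological replicates, and the test of dose used no vehicle library. The values of 3 vehicle (DMSO) libraries of the same time point are given beside the values, and 6 libraries of the same doses at 10 min and 8 libraries of a second study (1.5 µM or vehicle, 60 min, ribo-seq and mRNA-seq) gave further measurements. The ribo-seq libraries of the second study also placed 1 of the boundaries described below, and the dose difference itself was always tested between the 6 libraries.

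A ribosome that halts within a coding sequence (CDS) leaves a characteristic footprint pattern: reads pile up on and before the codon where it halts, and reads 3ʹ to that codon thin out because fewer ribosomes travel on. Nascent chains inside the exit tunnel can set where this occurs, and a number of natural arrest peptides work with the help of a small molecule. Total reads on a CDS can hide a stall, since the pile-up and the loss 3ʹ to it offset each other. Reads were therefore counted over the whole CDS, 3ʹ to a boundary codon, and on single codons. The boundary codon, here called Dmax, is where the cumulative fraction of a transcript's reads at the higher dose exceeds that at the lower dose by the most.

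Reads on CDS ranged from 6993637 to 22224137 at 1.5 µM and from 12905244 to 16370320 at 0.3 µM. Hepatocyte markers were high in sum at both doses, with 21361 to 29426 CPM (counts scaled to library size) over 8 genes at 1.5 µM and 20683 to 29839 CPM at 0.3 µM. AFP alone stood at 9250 to 14299 CPM, and ALB was not found by name. The 4 found markers of other liver cells summed to 624 to 936 CPM and 575 to 827 CPM. Among them STAB2 was at 0, but ACTA2 stood at 502 to 863 CPM. This was above the hepatocyte markers HNF4A (204 to 265 CPM) and TTR (189 to 243 CPM). Libraries with the same replicate number deviated together from their group means (correlations of 0.827, 0.480 and 0.683 over 8629 transcripts), so the replicate number was used as a block. CPM use edgeR's TMM scaling, and log2 fold changes give 1.5 µM relative to 0.3 µM, ± SE, from edgeR's quasi-likelihood test at a Benjamini-Hochberg FDR of 0.1.

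The codons with a larger share of reads at 1.5 µM are introduced first by their sequences. A total of 71 sites, merged from neighboring codons, held a larger share of their own transcript's reads at 1.5 µM, and the windows shown are those where the site reached at least 3% of the reads at 1.5 µM and the transcript also lost reads 3ʹ to a boundary placed on the second study. Each line shows the 10 codons that end at the site, 5ʹ to 3ʹ, with the P-site codon in capitals; the ARF4 and H2BC26 windows are added as a paralog of ARF1 and as the example of the histone H2B genes.
HSD17B11 codon 16: atcctcctgcttctcccgttactgatcGTC
TM2D3 codon 19: ggcctccgcgccttgtgtcgcgtgctgCTC
MDK codon 16: ctcctcctcaccctcctcgccctgctgGCG
EMC7 codon 17: ttctttcccgtcctgctgctgctgctgCTA
BCAP31 codon 23: gcggaggtctttgttgtgttgcttctcTGC
NDUFB8 codon 15: gccggggtcttgggagtccagtggctgCAA
IFI30 codon 94: ccaacatggctgttggtcatggagatcCTC
USO1 codon 287: accaatctacatctaatgctacagcttGTT
RPL27 codon 24: gctggacgctactccggacgcaaagctGTC
GINS1 codon 25: gcgcccgaagggcaactgcctgccttcAAC
ARF1 codon 25: aaagaaatgcgcatcctcatggtgggcCTG
ARF4 codon 25: aagcagatgcgcattttgatggttggaTTG
H2BC26 codon 60: cccgacaccggcatctcgtccaaggccATG

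Sequences and positions are from GENCODE v44 on GRCh38, the build the authors used, with codons counted from the start codon as 1. The HSD17B11 window lies in exon 1 at chr4:87391023-87391052 on the minus strand, the TM2D3 window in exon 1 at chr15:101652305-101652334 on the minus strand, and the MDK window in exon 2 at chr11:46382076-46382105 on the plus strand. The EMC7 window is in exon 1 at chr15:34101789-34101818 (minus), the BCAP31 window in exon 2 at chrX:153723176-153723205 (minus), the NDUFB8 window in exon 1 at chr10:100529807-100529836 (minus) and the IFI30 window in exon 2 at chr19:18175160-18175189 (plus). The RPL27 window is in exon 2 at chr17:42998793-42998822 (plus), the GINS1 window in exon 1 at chr20:25407866-25407895 (plus), and the H2BC26 window in exon 1 at chr1:228458280-228458309 (plus). The ARF1 window is in exon 2 at chr1:228097160-228097189 (plus). The USO1 and ARF4 windows cross a splice junction, and their P-site codons are in exon 10 at chr4:75787065-75787067 (plus) and in exon 2 at chr3:57584457-57584459 (minus).

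Among sites outside the histone H2B genes, 47 different windows could be read. Their GC content had a median of 53.3% (33.3 to 83.3%), beside 50.0% over the windows of 86059 tested codons. The P-site codon itself varied, with 30 different codons and none in more than 4 windows. In-frame codons with T at their second base (NTN) numbered 5 or more in 23 of the 47 windows (48.9%) and in 11.6% of the windows of tested codons. In-frame CTN codons numbered 3 or more in 13 of the 47 windows (27.7%), as in MDK and EMC7, and in 3.90% of all tested. Within the first 50 codons, where the genes for secreted and membrane proteins often encode hydrophobic stretches, the shares were 8 of 22 windows and 5.61% of tested codons. These codon patterns were chosen after the windows were seen and are a description.

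On single codons, 119 of 99096 tested codons (0.12%) held a larger share of their transcript's reads at 1.5 µM and 22 (0.0222%) a smaller one. The 119 codons lay in 17 of 18 H2B transcripts (39 codons) and in 51 other transcripts (80 codons, 51 sites). The increase was 1.83- to 7.54-fold with a median of 2.73-fold. Of the 51 sites outside H2B, 24 (47.1%) lay at or before codon 50, where 14.5% of tested codons lie, and the median site was codon 54 beside codon 149 for all tested. The groups of 3 did not overlap for 101 of the 119 codons, whereas 2.55% of all tested codons showed such a separation. The 119 were called on these same libraries, so nothing is read from that count. Without the block, edgeR called 0 codons (914 at unadjusted p under 0.05), and the 141 calls became 674 without the pair of replicate 1, 457 without that of replicate 2 and 56 without that of replicate 3, which kept 41 of the 141.

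HSD17B11, a hydroxysteroid dehydrogenase of the endoplasmic reticulum and lipid droplets, had a called site near its start. Codon 16 held 32.9, 42.6 and 56.8% of all reads on the CDS at 1.5 µM, 10.5, 9.32 and 18.0% at 0.3 µM, and 0.144, 1.37 and 2.10% with vehicle. Every library at 1.5 µM lay above every library at 0.3 µM, and every library at 0.3 µM above every vehicle library (log2 fold change 2.49 ± 0.22, edgeR adjusted p = 0.000221). At 10 min the same codon held 43.7, 39.3 and 36.9% at 1.5 µM and 16.1, 9.95 and 12.2% at 0.3 µM, again without overlap.

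TM2D3, a membrane protein, had a log2 fold change of 2.91 ± 0.41 at codon 19, with 11.5, 14.5 and 15.7% at 1.5 µM, 0.904, 1.58 and 4.09% at 0.3 µM, and 0, 0.529 and 1.37% with vehicle. The doses separated at this codon, whereas 0.3 µM and vehicle overlapped. MDK, the secreted heparin-binding growth factor midkine, held 2.99, 3.62 and 3.39% on codon 16 at 1.5 µM, 1.11, 0.693 and 0.121% at 0.3 µM, and at most 0.193% with vehicle. EMC7, a subunit of the endoplasmic reticulum membrane complex that inserts membrane proteins, held 5.63, 8.29 and 9.93% on codon 17 at 1.5 µM and 2.95, 1.93 and 3.13% at 0.3 µM. These genes share an early site, and the doses did not overlap in any of them.

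**Figure D1:**
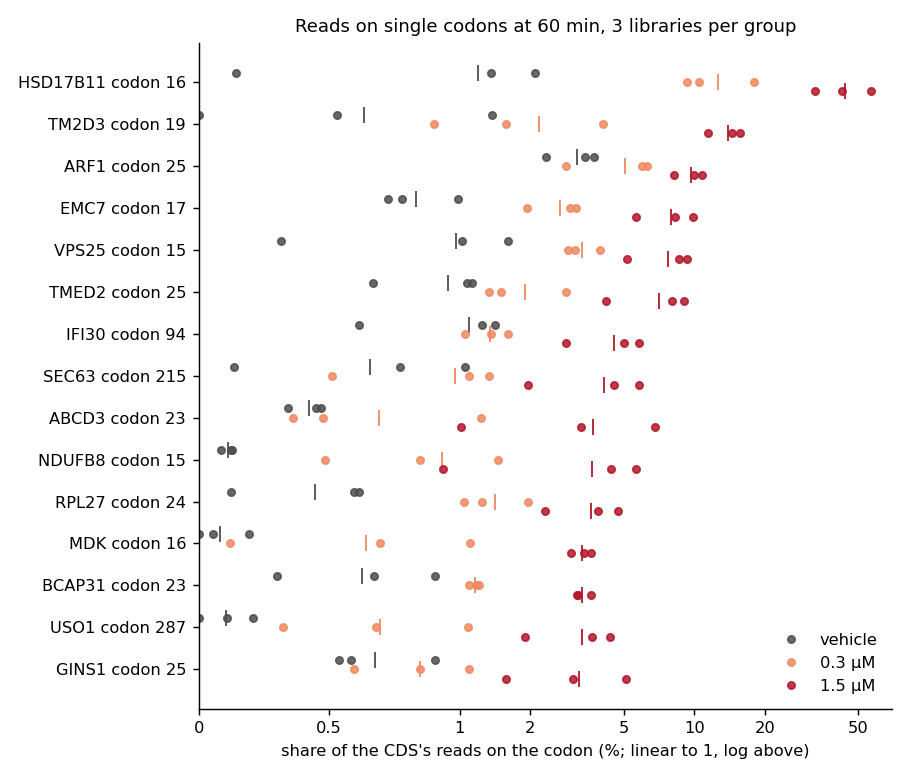
Share of a coding sequence's reads that lie on 1 codon (percent, linear to 1 and logarithmic above), with 1 point per library and a bar at each group mean, for vehicle, 0.3 µM and 1.5 µM at 60 min (3 libraries each). HSD17B11 codon 16 reached 32.9 to 56.8% at 1.5 µM, and in NDUFB8 and ABCD3 the lowest library at 1.5 µM lay among those at 0.3 µM.

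The GTPases ARF1 and ARF4, which recruit coats to Golgi membranes, had a site at the same codon number. ARF1 codon 25 held 8.22, 10.8 and 10.0% at 1.5 µM and 2.85, 6.32 and 6.01% at 0.3 µM, and ARF4 codon 25 held 4.74, 6.51 and 4.33% and 2.01, 2.81 and 2.13%. TMED2, a cargo receptor of vesicles between the endoplasmic reticulum and the Golgi, held 4.23, 8.02 and 9.02% on codon 25 at 1.5 µM and 1.34, 1.50 and 2.85% at 0.3 µM. The doses separated in all of these genes, while ARF4 and TMED2 reads 3ʹ to a boundary were not called. VPS25, a subunit of the ESCRT-II sorting complex, held 5.18, 8.60 and 9.36% on codon 15 and 2.91, 3.11 and 3.98%, again with no overlap.

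Later sites were found as well. USO1, the vesicle tether p115, held 3.69, 1.91 and 4.36% on codon 287 at 1.5 µM, 0.323, 0.678 and 1.08% at 0.3 µM, and at most 0.207% with vehicle. SEC63, a partner of the SEC61 protein translocation channel, held 1.97, 4.53 and 5.83% on codon 215 and 0.509, 1.34 and 1.101%. DGCR2, a membrane adhesion receptor, held 4.92, 3.41 and 3.95% on codon 366 and 0.254, 1.30 and 0.739%. RPS6, a protein of the small ribosomal subunit, held 2.04, 5.43 and 6.82% on codon 151 and 0.796, 1.58 and 3.53%, where the doses overlapped. The most distal site was codon 1386 of complement C3, with 0.3999, 0.226 and 0.309% at 1.5 µM and 0.134, 0.128 and 0.0764% at 0.3 µM.

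The H2B genes encode the core histone H2B and differ little in sequence. Reads that align equally well to a few of them were counted for each, so the genes are not separate measurements. The authors left out reads with more equally good sites than a set limit. How far this shaped the H2B shares and totals was not tested. Of their 39 called codons, 35 were codons 58 to 60. H2BC26 codon 60 held 22.9, 16.7 and 16.4% at 1.5 µM, 8.57, 6.53 and 7.76% at 0.3 µM, and 1.64, 4.40 and 4.57% with vehicle. The 3 dose groups formed separate ranges in this gene.

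Of the 22 codons with a smaller share at 1.5 µM, 14 lay between codons 53 and 127 of RPL27, a protein of the large ribosomal subunit, which also had 5 codons with a larger share between codons 15 and 26. Its codon 24 held 2.30, 3.89 and 4.75% at 1.5 µM and 1.05, 1.24 and 1.95% at 0.3 µM. The remaining smaller shares were 7 H2B codons and codon 245 of SEC13, a coat protein.

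The 10 min libraries gave the same codons an independent measurement. Of the 51 sites outside H2B, 43 had at least 20 reads on average at 10 min, and 39 of them were larger at 1.5 µM in 3 of 3 replicate pairs, beside 16.3% of all codons with such depth. None of the 43 was larger in 0 of 3 pairs. The mean share at 0.3 µM exceeded that of vehicle in 40 of the 51 sites, beside 57.0% of tested codons.

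Reads 3ʹ to a boundary were then compared. With the boundary taken from the second study, so that its position did not depend on the libraries tested, 41 of 10854 transcripts (0.378%) were lower at 1.5 µM at the FDR and 8 were higher. A call also required a boundary Z-score of at least 2, which 250 of the tested transcripts reached, and 33 of these were called lower (0.304% of all tested). Only lower transcripts could be called. All 33 were lower in 3 of 3 pairs, and the groups did not overlap for 28, beside 2.16% of all tested transcripts with this order and 2.09% with the opposite one. The 33 were called on these same libraries, so nothing is read from these counts. The median level at 1.5 µM was 60.6% of that at 0.3 µM. Without the block, edgeR called 4 (MDK, PCBP1, PCBP2 and RPL27). All 33 kept their direction and 31 had an unadjusted p under 0.05, but they had been selected on the same libraries, so nothing is read from that. With the block but without the pair of replicate 2, edgeR called 56, among them all 33. Without the pair of replicate 1 or 3 it called 28 and 29, each with 27 of the 33.

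The called genes are given by the known role of their proteins, an order chosen after the values were seen. RPL27 reads 3ʹ to codon 30 were 337, 256 and 257 CPM at 1.5 µM, 773, 674 and 582 CPM at 0.3 µM, and 1043, 933 and 954 CPM with vehicle. The 3 groups stood apart, each higher dose below the last (1.5 relative to 0.3 µM: −1.26 ± 0.07, edgeR adjusted p = 1.05e-09), while RPL27 reads over the whole CDS differed by −0.08. The poly(C)-binding RNA regulators PCBP1 and PCBP2 fell as well, but the study notes that their reads mostly cannot be assigned to one or the other, so the 2 genes are not separate measurements. PCBP1 stood at 263, 310 and 296 CPM at 1.5 µM, 510, 586 and 570 CPM at 0.3 µM, and 686, 759 and 778 CPM with vehicle (−0.94 ± 0.06), and PCBP2 at 430, 471 and 421 CPM, 712, 719 and 739 CPM, and 826, 879 and 852 CPM (−0.72 ± 0.06). Neither set of values overlapped between any 2 of the groups.

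CDO1, the cysteine dioxygenase that starts cysteine breakdown, showed another dose pattern. Its reads 3ʹ to codon 48 were 6.66, 7.48 and 6.75 CPM at 1.5 µM, 13.2, 13.5 and 15.8 CPM at 0.3 µM, and 14.3, 12.2 and 14.02 CPM with vehicle (−1.03 ± 0.15, edgeR adjusted p = 0.000723). The libraries at 0.3 µM lay within or above the vehicle range, and only those at 1.5 µM lay below it. GINS1, a subunit of the DNA replication helicase complex, also had its 0.3 µM libraries within the vehicle range, with 95.9, 86.2 and 84.95 CPM at 1.5 µM, 124, 123 and 127 CPM at 0.3 µM, and 141, 121 and 121 CPM with vehicle (−0.49 ± 0.07). DPCD, a protein linked to ciliary motility, changed by −0.89 ± 0.13, and RBM8A, a component of the exon junction complex, by −0.36 ± 0.08.

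MDK reads 3ʹ to codon 34 were 42.9, 54.2 and 52.6 CPM at 1.5 µM, 93.3, 130 and 127 CPM at 0.3 µM, and 167, 176 and 197 CPM with vehicle (−1.22 ± 0.07, edgeR adjusted p = 5.71e-09). LTBP3, which holds latent TGF-β in the matrix, stood at 8.16, 13.4 and 11.8 CPM, 18.2, 25.6 and 21.3 CPM, and 29.3, 44.2 and 33.5 CPM (−0.996 ± 0.122). Both genes were ordered by dose with no overlap. MST1, the hepatocyte-derived macrophage-stimulating protein, stood at 10.2, 17.6 and 9.75 CPM, 17.3, 29.99 and 19.1 CPM, and 41.3, 46.1 and 32.7 CPM (−0.83 ± 0.12), and here the 2 doses overlapped through replicate 2 while the vehicle libraries lay above both. LYZ (lysozyme) and TGFBI (a matrix protein) had smaller differences of −0.35 ± 0.06 and −0.31 ± 0.07, with overlapping doses.

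HSD17B11 reads 3ʹ to codon 36 were 29.99, 30.8 and 20.7 CPM at 1.5 µM, 76.6, 73.7 and 54.3 CPM at 0.3 µM, and 107, 101 and 83.8 CPM with vehicle (−1.34 ± 0.08, edgeR adjusted p = 7.74e-09). CDH1 (E-cadherin), with a boundary as late as codon 741, stood at 13.99, 15.5 and 11.6 CPM, 24.9, 36.5 and 23.3 CPM, and 43.6, 40.5 and 37.4 CPM (−1.01 ± 0.11), although its whole-CDS reads differed by only −0.03. Both genes fell in dose order without overlap. BCAP31, which sorts membrane proteins at the endoplasmic reticulum, changed by −0.82 ± 0.07 and SORCS2, a sorting receptor, by −0.91 ± 0.17. SUMF1, which activates sulfatases, and its paralog SUMF2 changed by −0.71 ± 0.11 and −0.87 ± 0.10, PODXL2 by −0.82 ± 0.08, TM2D3 by −0.88 ± 0.12, EMC7 by −0.66 ± 0.09, CD99 by −0.63 ± 0.07 and BRI3BP by −0.48 ± 0.11. The lysosomal thiol reductase IFI30 changed by −0.38 ± 0.07, MGST3, a microsomal glutathione transferase, by −0.34 ± 0.07, and STBD1, which tethers glycogen to membranes, by −0.49 ± 0.11.

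USO1 reads 3ʹ to codon 314 were 50.3, 37.1 and 31.2 CPM at 1.5 µM, 86.2, 72.3 and 52.8 CPM at 0.3 µM, and 93.4, 82.9 and 76.2 CPM with vehicle (−0.83 ± 0.08). The doses did not overlap, whereas 0.3 µM and vehicle did. ARF1 stood at 369, 527 and 465 CPM, 535, 614 and 735 CPM, and 790, 690 and 783 CPM (−0.48 ± 0.07), and was lower within each pair. The mitochondrial ribosomal protein MRPL45 changed by −0.55 ± 0.09, and the complex I proteins NDUFAB1 and NDUFB8 by −0.44 ± 0.08 and −0.29 ± 0.06. Over the 33 transcripts, the mean at 0.3 µM was below that of vehicle in 31 (exceptions CDO1 and MGST3), and its median was 80.7% of vehicle, beside 48.9% at 1.5 µM. All libraries at 0.3 µM lay below all vehicle libraries in only 17 of the 33, and those at 1.5 µM in 31. The share of all tested transcripts with these orders was not computed, so nothing is read from these counts.

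**Figure D2:**
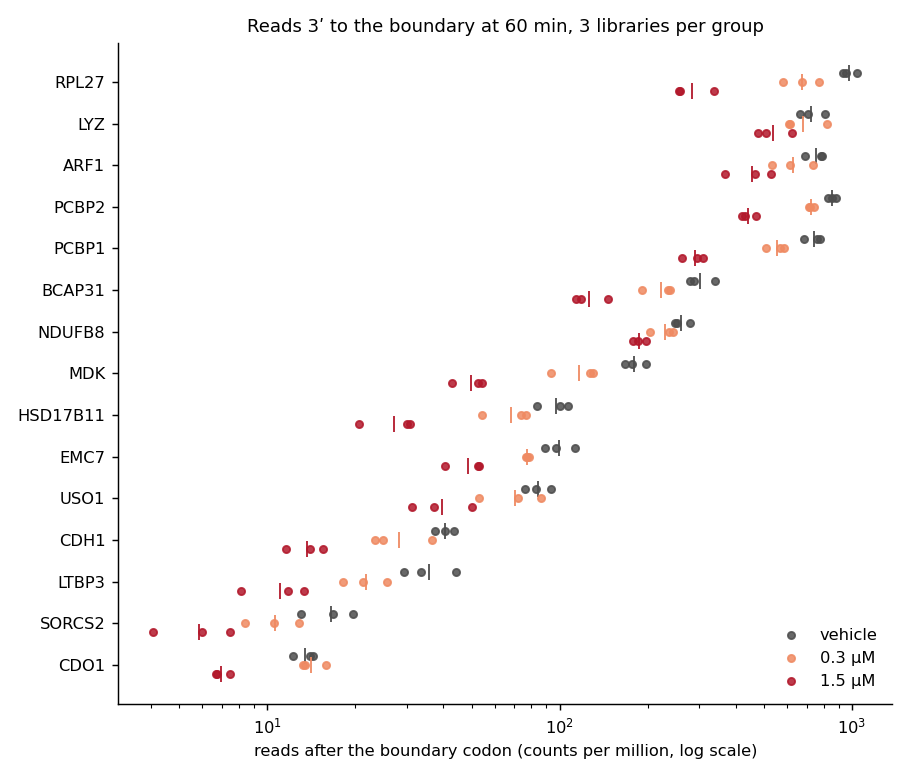
Reads 3ʹ to the boundary of the second study (CPM, log axis) for 15 of the 33 called genes, with 1 point per library and a bar at each group mean (3 libraries each of vehicle, 0.3 µM and 1.5 µM, 60 min). RPL27 fell from 933 to 1043 CPM with vehicle to 256 to 337 CPM at 1.5 µM, whereas in CDO1 the libraries at 0.3 µM (13.2 to 15.8 CPM) lay within or above the vehicle range.

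With the boundary taken from the 60 min libraries themselves, 45 of 10855 transcripts (0.415%) were lower at the FDR and 8 were higher. Of the 278 tested transcripts with a boundary Z-score of at least 2, 35 were called lower (0.322% of all tested), and 27 were called with both boundaries (77.1% of these 35 and 81.8% of the 33). The boundary lay between codons 25 and 732 with a median at codon 65, and at or before codon 50 in 14. This boundary was placed on the same 6 libraries where reads at 1.5 µM ran ahead the most, so the lower direction 3ʹ to it is partly built in. The groups did not overlap for 32 of the 35, beside 2.46% of all tested with this order and 2.14% with the opposite one, which were not selected in this way, and nothing is read from that count. With the groups exchanged, so that the boundary favored the lower dose, 15 transcripts were called higher at 1.5 µM. Without the block, edgeR called the same 4 genes as above. All 35 kept their direction and 33 had an unadjusted p under 0.05, but they had been selected on the same libraries, so nothing is read from that. With the block but without the pair of replicate 2, edgeR called 81. Without the pair of replicate 1, 2 or 3, 26, 32 and 29 of the 35 passed.

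A further 8 transcripts were called with the 60 min boundary alone. SLC66A3, a membrane transporter family member, stood at 0.621, 0.716 and 0.322 CPM at 1.5 µM and 2.31, 1.75 and 1.70 CPM at 0.3 µM 3ʹ to codon 107 (−1.86 ± 0.42, 14.8 reads on average), but differed by 0.11 with the boundary of the second study. CCR1, a chemokine receptor, stood at 0.983, 1.43 and 0.645 CPM and 3.14, 2.85 and 2.83 CPM (−1.61 ± 0.34), and at −0.68 with the other boundary. The peroxisomal transporter ABCD3 (−0.42 ± 0.07), the microtubule end-binding protein MAPRE1 (−0.42 ± 0.06), the SMN complex protein GEMIN8 (−0.75 ± 0.17), the O-glucosyltransferase POGLUT1 (−0.63 ± 0.14), the mitotic kinesin KIF23 (−0.31 ± 0.07) and the linker histone H1-1 (−0.33 ± 0.07) were the others.

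**Figure D3:**
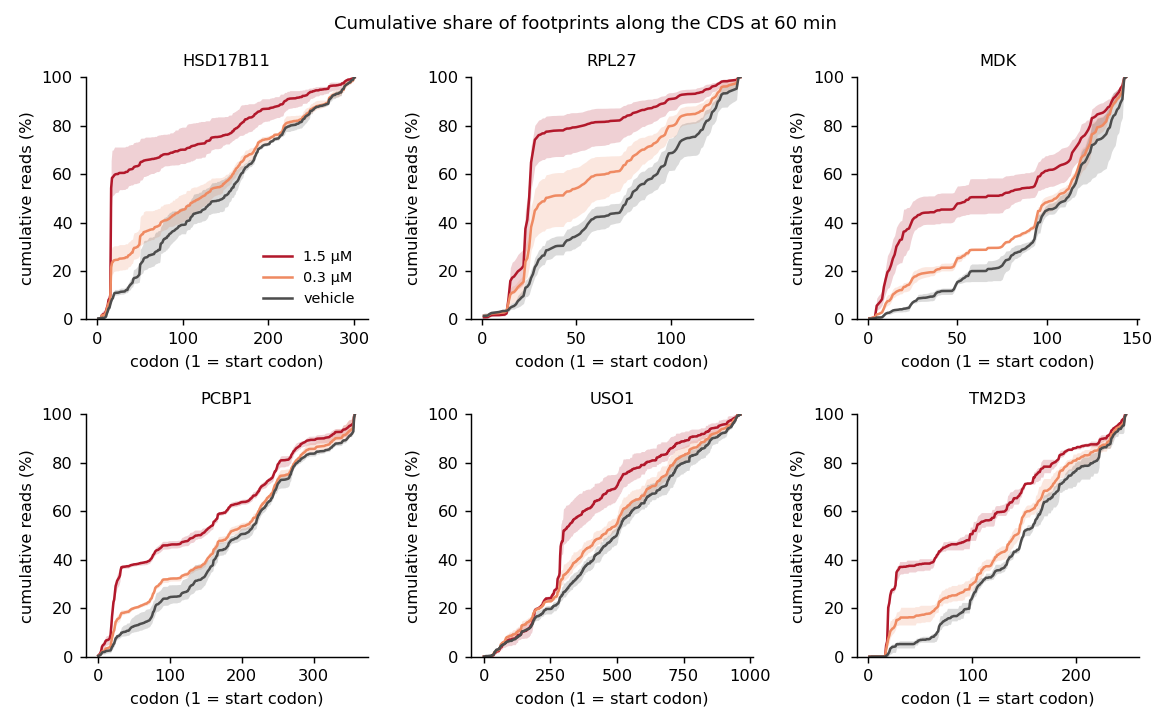
Cumulative share of reads (percent) along the CDS (codon number, start codon 1) for 6 genes at 60 min. Lines are means and bands the range of 3 libraries for 1.5 µM, 0.3 µM and vehicle, and the curve for 1.5 µM rises above that for 0.3 µM near the called sites, as at codon 16 of HSD17B11 and codon 287 of USO1.

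The 10 min libraries, which share no sample with the 60 min comparison, were tested with the 60 min boundaries. All 35 transcripts were lower at 1.5 µM, beside 48.8% of all 10733 tested. Of the 35, 28 passed the FDR, beside 0.857% of all tested that were lower at the FDR and 1.16% that were higher. An unadjusted p under 0.05 was reached by 33, beside 7.54% of all tested that were lower at this threshold. The median log2 fold change was −0.72 at 60 min and −0.76 at 10 min. HSD17B11 changed by −1.46 ± 0.11 at 10 min, RPL27 by −1.22 ± 0.10, CDH1 by −1.12 ± 0.14 and MDK by −0.97 ± 0.12. Among the other 239 tested transcripts with a comparable boundary score, 13 were lower and 0 higher at 10 min, where edgeR called 41 in all with the block and 13 without it.

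**Figure D4:**
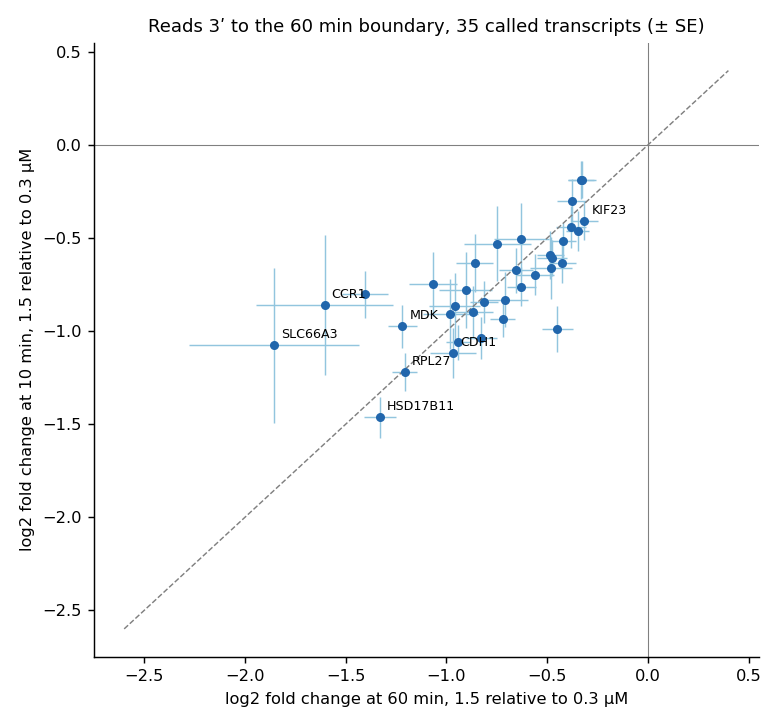
Log2 fold change (1.5 relative to 0.3 µM, ± SE) of reads 3ʹ to the 60 min boundary at 60 min (x axis) and 10 min (y axis) for the 35 called transcripts; the dashed line marks equal values. All 35 lie below 0 at 10 min, and CCR1 and SLC66A3 have the widest errors.

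Over the whole CDS, 20 of 11136 transcripts (0.18%) were lower and 10 (0.0898%) higher at 1.5 µM, with 641 at unadjusted p under 0.05. Without the block edgeR called 0 (99 at unadjusted p under 0.05), and DESeq2 with the block called 17. All 30 kept their direction without the block and 28 had an unadjusted p under 0.05. They had been selected on the same libraries, so nothing is read from that. The count was 93, 69 and 37 without the pair of replicate 1, 2 and 3, with 27, 28 and 19 of the 30 calls among them. Of the 20 lower transcripts, 17 were also called with either boundary. In CPM scaled over the 6 libraries alone, the groups did not overlap for 17 of the 20 lower, beside 1.9% of all tested, and for 4 of the 10 higher, beside 2.13%. The CPM printed for single genes were scaled over more libraries and can differ slightly. The calls were made on these same libraries, so nothing is read from these counts.

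The lower transcripts called with neither boundary were FAM13B, IGF2BP2 and PLOD3. FAM13B stood at 0.313, 0.301 and 0.276 CPM at 1.5 µM, 1.52, 1.82 and 1.53 CPM at 0.3 µM, and 2.64, 2.22 and 3.27 CPM with vehicle (−2.36 ± 0.44, edgeR adjusted p = 0.0334), with 13.5 reads on average. The mRNA-binding protein IGF2BP2 stood at 52.5, 43.2 and 39.5 CPM, 78.03, 62.4 and 55.2 CPM, and 76.6, 62.6 and 59.8 CPM (−0.53 ± 0.07), so that 0.3 µM overlapped with vehicle. PLOD3, a collagen lysyl hydroxylase, changed by −0.35 ± 0.06. FAM13B and IGF2BP2 separated the doses, while in PLOD3 the highest library at 1.5 µM (289.9 CPM) nearly met the lowest at 0.3 µM (290.3 CPM).

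Higher whole-CDS reads had several forms. The zinc exporter SLC30A1 stood at 96.3, 114 and 91.3 CPM at 1.5 µM and 73.8, 86.4 and 67.7 CPM at 0.3 µM (0.40 ± 0.07), and ATP5MK, a small subunit of ATP synthase, at 225, 185 and 208 CPM, 181, 148 and 146 CPM, and 105, 136 and 128 CPM with vehicle (0.38 ± 0.06). Neither gene overlapped between doses. TMX1, a thioredoxin-related protein of the endoplasmic reticulum, changed by 0.32 ± 0.07, the lysosomal mannosidase MAN2B2 by 0.39 ± 0.08, the phosphatase PTP4A1 by 0.53 ± 0.08 and the palmitoyltransferase ZDHHC8 by 0.64 ± 0.13.

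The H2B genes HIST1H2BN (0.81 ± 0.08), H2BC26 (0.52 ± 0.08) and H2BC11 (0.44 ± 0.07) were higher over the whole CDS, yet their reads 3ʹ to the second-study boundary, which fell at codons 61 to 63, differed by −0.0046, −0.07 and −0.15 and were not called. HUNK, a kinase of the AMPK family, was higher over the whole CDS (0.84 ± 0.18), with 16.6, 54.5 and 14.7 CPM at 1.5 µM and 11.6, 17.9 and 13.2 CPM at 0.3 µM. Its codon 48 held 74.1% of reads on average at 1.5 µM, replicate 2 at 1.5 µM stood apart, and with the codons after 50 only HUNK fell by 0.197, which was not called. Of the 10 higher transcripts, 9 were higher at 10 min (exception SLC30A1, −0.03) and 6 were called, beside 2.47% of all tested called higher. All 20 lower transcripts were lower at 10 min, beside 49.8% of all tested, and 15 were called, beside 1.06% of all tested called lower. The 390 whole-CDS calls at 10 min became 20, 232 and 1309 without the pair of replicate 1, 2 and 3, and edgeR without the block called 0 (1273 at unadjusted p under 0.05).

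Neither the dependence on time, tested on whole-CDS reads only, nor mRNA gave a call. For whole-CDS reads, edgeR with the block called 0 of 11196 transcripts for a dose difference that changed between 10 and 60 min. An unadjusted p under 0.05 was reached by 777, and the smallest adjusted p in this edgeR test was 0.704. Without the block and by DESeq2, 160 and 309 had such an unadjusted p. Whether the dose difference changed with time was not tested for reads after a boundary or on single codons. In mRNA-seq of the second study (2 libraries per group), edgeR without the block called 0 of 11812 transcripts between 1.5 µM and vehicle (228 at unadjusted p under 0.05). With the block edgeR also called 0 (378 at unadjusted p under 0.05), and DESeq2 without the block called 1. For the 41 transcripts called with either boundary the mRNA differed by −0.25 to 0.58 with a median of 0.03, and 1 had an unadjusted p under 0.05. The series holds no mRNA-seq library at 0.3 µM.

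Of the genes that the study itself singled out as sensitive, 21 were examined as a list. The study chose them with libraries that include those at 1.5 µM, so their direction is not independent evidence. Over the whole CDS 11 were lower (beside 0.18% of all tested) with a median of −0.40, and 3ʹ to the second-study boundary 19 were called lower (beside 0.304% of all tested) with a median of −0.82, beside medians of −0.00047 and −0.00062 over all transcripts tested. The remaining 2 were PLA2G15, a lysosomal phospholipase (−0.71, edgeR adjusted p = 0.18), and CCR1 (−0.68, adjusted p = 0.65). Of 7 other genes it singled out, TM2D3 and SORCS2 were called lower. LRP8, a lipoprotein receptor family member, differed by −0.47, VPS25 by −0.18 and COX10, a heme biosynthesis enzyme, by 0.27, none of them called. The study described stalls in TM2D3 and VPS25 without fewer reads downstream, at 1.5 µM against vehicle. Here TM2D3 reads 3ʹ to codon 67 averaged 13.9 CPM at 1.5 µM, 24.9 CPM at 0.3 µM and 30.7 CPM with vehicle. FAM13B (−2.32, edgeR adjusted p = 0.031) and MAPRE1 (−0.28, edgeR adjusted p = 0.0986) passed the FDR, but their boundary Z-scores of 0.957 and 1.52 were under the minimum of 2 for a call.

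Of the other gene groups, the histones alone gave calls over the whole CDS. None of 22 genes of cholesterol synthesis (median 0.03), 14 of the integrated stress response (0.01), 18 of ribosome rescue and quality control (−0.04), 25 of targeting to the endoplasmic reticulum (0.01), 17 of its chaperones (−0.0037), 19 of hepatocyte plasma proteins (−0.03), 15 immediate early genes (0.08) or 11 elongation factors (−0.02) passed the test. With 0.269% of all transcripts called in either direction, no call in lists of this size is at the background. The list of targeting to the endoplasmic reticulum leaves out EMC7, which is listed with the study's sensitive genes and was lower over the whole CDS (−0.37 ± 0.07). Among 82 ribosomal protein genes none passed over the whole CDS (−0.01), and RPL27 alone was called 3ʹ to a boundary. Among 57 histone transcripts 3 rose, all of them H2B genes, beside 0.0898% of all tested, and the median was 0.09. At 10 min 33 of the 57 were higher, beside 2.47% of all tested, with a median of 0.41. Reads that align equally well to several histone transcripts were counted for each. The 57 are therefore not separate measurements, and these counts are a description. The cholesterol enzyme DHCR7 (0.37), the transcription factors CEBPB (0.45) and JUND (0.56), the membrane complex subunit EMC8 (0.37) and 7 of 82 ribosomal protein genes were also higher at 10 min and were not called at 60 min. Without the block, edgeR called 0 whole-CDS transcripts at 10 min (1273 at unadjusted p under 0.05).

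All 13 mitochondrially encoded transcripts, which are translated on separate ribosomes, had negative values (median −0.44), and none was called. Their summed level was 1351, 1792 and 1628 CPM at 1.5 µM, 1403, 3840 and 1871 CPM at 0.3 µM, and 3763, 2185 and 1790 CPM with vehicle. The value of replicate 2 at 0.3 µM stood apart from the other libraries of both doses.

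**Figure D5:**
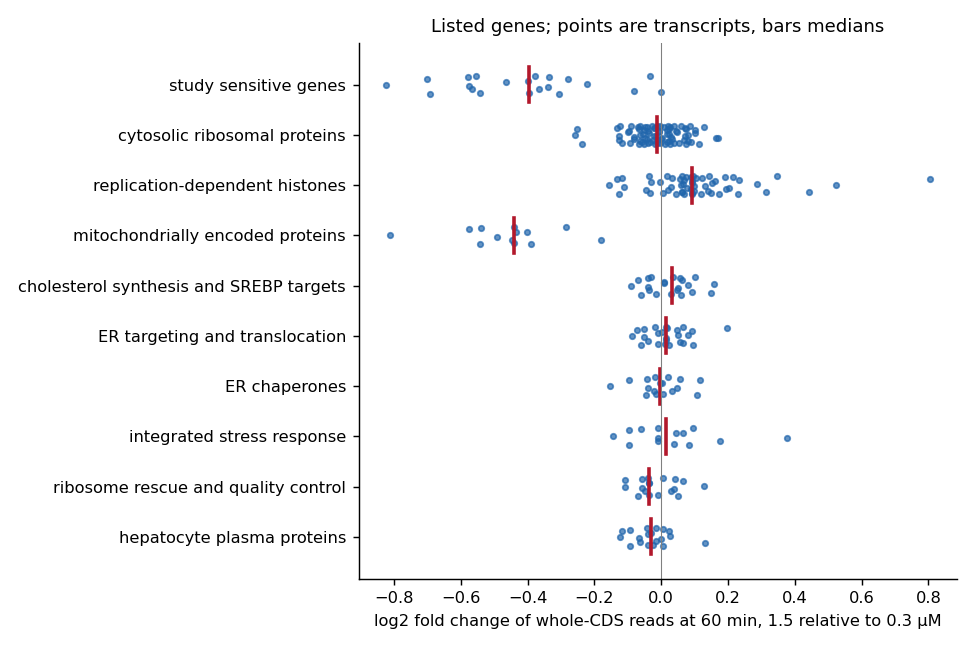
Log2 fold change of whole-CDS reads (1.5 relative to 0.3 µM, 60 min, x axis) for genes of 10 lists, 1 point per transcript, with a red bar at each median; vertical offsets within a list have no meaning. Medians were −0.40 for the study's sensitive genes and −0.44 for mitochondrially encoded transcripts, and lay between −0.04 and 0.09 for the other lists.

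The mean position of reads along the CDS (center of density) moved toward the start codon at 1.5 µM for 44 of 10643 transcripts (0.413%) and away from it for 6 (0.0564%). Of the 44, 40 had a CDS over 1000 codons, as did 11.8% of those tested, and 4 were called with a boundary. The shift was measured in codons and scored against transcripts of like depth whatever their length, so a long CDS passes more easily. Nothing is read from that excess. Relative to CDS length, the shift of the 40 ranged from −0.946% (EPPK1) to −11.0% (HEPH), beside −9.56% in PCBP1 and −7.02% in USO1. The shift was toward the start in 3 of 3 pairs for 32 of the 44, and some had an SD between pairs above the mean shift, as APOB did. Without the pair of replicate 1, 2 or 3, the 50 transcripts became 77, 96 and 80. In USO1 the center moved from codons 473, 473 and 442 at 0.3 µM to 415, 408 and 363 at 1.5 µM, and in PCBP1 from 173, 180 and 174 to 140, 143 and 142. Both genes shifted by a like amount in each pair. In APOB, the structural protein of lipoproteins, it moved from 2261, 2363 and 2067 to 2259, 2172 and 2044, so that replicate 2 carried most of the mean shift of −71.9 codons. Of the 41 transcripts called with either boundary, 39 had a negative difference with a median of −18.1 codons, beside 56.3% of all tested and a median of −0.84 codons. The 41 were called on these same libraries for fewer reads 3ʹ to a boundary. That moves the center toward the start, so nothing is read from that count.

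The average distribution of footprints was compared by an unpaired exact permutation test of 3 against 3, which cannot fall below p = 0.1 and so cannot show a difference at 0.05. Over 8250 transcripts, density at codons 2 to 50, relative to the CDS mean, was 0.707 ± 0.042 at 1.5 µM, 0.688 ± 0.0188 at 0.3 µM and 0.696 ± 0.0461 with vehicle (SD, n = 3; two-sided exact permutation p = 0.7 between doses), and was higher at 1.5 µM in 2 of 3 pairs. The codon before the stop codon stood at 9.12 ± 1.01, 9.77 ± 1.11 and 11.3 ± 2.49 (exact permutation p = 0.6; higher at 1.5 µM in 1 of 3 pairs), and the queue 10 to 12 codons before the stop codon at 1.11 ± 0.0763, 1.12 ± 0.0191 and 1.20 ± 0.0828 (exact permutation p = 0.8; 1 of 3 pairs).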

How the data were processed

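Huh7 cells were profiled as described above. The authors removed adapters and ribosomal reads and aligned the rest to GRCh38 transcripts of Ensembl 78 with Bowtie 1.1.2. They kept reads with several equally good sites up to a set limit, left out reads with more, and deposited read counts per codon of 12325 transcripts. These deposited counts are not normalized. Kallisto 0.42.5 and DESeq are also named in the submitters' notes. Transcripts were named from GENCODE v44 (11270) or a table of the study (228), and 827 remained unnamed.

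Counts were summed per transcript, 3ʹ to Dmax, or per codon, and tested with edgeR 4.0.16 (filterByExpr, TMM, quasi-likelihood) with replicate number as a block, Benjamini-Hochberg FDR 0.1. The main mRNA-seq test had no block. Same-numbered libraries correlated over 0.1 in every pair, each best with its own number. Dmax needed 10 reads in each group and was scored against 300 transcripts of like depth per bin (Z-score 2 or more), with codon 50 as the default boundary. Codons needed 20 reads and their CDS 200 reads on average, with the reads on the other codons as offset, and called codons within 12 codons formed a site. The center of density used a mean Z-score beyond 3 and has no p-value. Alternatives were DESeq2 1.42.0, no block, other filters and left-out pairs. The tests were also tried on counts simulated from these libraries. Over the whole CDS, edgeR with the block made 29 false calls among 224 and recovered 95% of 1.5-fold changes. Without the block it made 0 false calls among 91 and recovered 12%. Named genes were listed genes and up to 8 of the most changed calls per direction with at least 50 reads on average, and further calls were named after their values were seen. The members and lists were chosen with earlier results of these data known. Some genes named by this rule are not reported here. P-values measure only the spread between these replicates, and counting error depends on depth.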

Additional observations from a re-analysis of the deposited data

How the results depend on the processing

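With the replicate numbers as pairs (block), the comparison of whole-CDS reads gave 30 calls, and without the block it gave 0. Without the block the reads 3ʹ to the 60 min boundary and to the second-study boundary gave 4 calls each (35 and 33 with it), codons 0 (141), whole-CDS reads at 10 min 0 (390) and reads 3ʹ to the boundary at 10 min 13 (41). The cause was not tested. Of 48 values for named genes, 43 no longer passed without the block. None changed sign, but the values had been selected with the block on the same libraries, so nothing is read from that. Leaving out 1 pair gave 37 to 93 whole-CDS calls, 37 to 81 and 28 to 56 calls with the 2 boundaries, 56 to 674 codons, 20 to 1309 whole-CDS calls at 10 min and 77 to 96 centers of density. Without the block and 1 library, counts were 0 for the whole CDS and 0 to 5 for each boundary.

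DESeq2 with the block called 17 transcripts over the whole CDS, 141 at 10 min and 27 3ʹ to the boundary at 10 min. In mRNA-seq DESeq2 was run without the block and called 1. Fitting all 9 libraries of 60 min gave 18 whole-CDS calls, and codons after 50 only gave 47, where HUNK reversed to −0.197. A Z-score of at least 3 gave 20 calls with the 60 min boundary, exchanged groups gave 15, and an FDR of 0.05 gave 82 codons. The density 10 to 12 codons before the stop codon differed by −0.191 when medians over transcripts were used. Genes with near-identical copies cannot be told apart at any depth, and SLC66A3, CCR1 and FAM13B rested on 13.5 to 23.3 reads per library on average.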
